A study of Mus musculus with 72 samples.

Results

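Transcripts of 6 NMDA receptor subunit genes, Grin1, Grin2a, Grin2b, Grin2c, Grin2d and Grin3a, were followed in 72 RNA-seq libraries of mouse brain. The members were the rows of the count table whose gene ID carried 1 of these symbols in the deposited tables, and all 6 were found among 55401 rows. All 6 passed the filter on low counts in every fit, and a member's count in a library ran from 61, for Grin2c, to 14682, for Grin2b. On mm10 the genes lie on the minus strand of chromosome 2 (Grin1, 25291181 to 25319187), 16 (Grin2a, 9567898 to 9995560), 6 (Grin2b, 135713233 to 136173511), 11 (Grin2c, 115249169 to 115267243), 7 (Grin2d, 45831883 to 45878378) and 4 (Grin3a, 49661611 to 49845744).

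NMDA receptors are glutamate-gated cation channels that need glutamate and a co-agonist, glycine or D-serine, to open. Grin1 encodes GluN1, the obligatory subunit that binds the co-agonist, and the Grin2 genes encode the GluN2 subunits, which bind glutamate and set the kinetics, magnesium block and anchoring of the channel. Grin2b and Grin2d are known as subunit genes of the embryonic and newborn brain, Grin2a and Grin2c as genes that come up after birth, and GluN3A, encoded by Grin3a, as a glycine-binding subunit of immature synapses.

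Libraries came from the right hemisphere of single C57Bl/6 pups (C57Bl/6NTac in the study's methods) that received morphine, an opioid agonist, or saline. In the PND1 window the dam carried an osmotic minipump with morphine at 10 mg/kg/day or with saline, and pups were taken on postnatal day 1. The design text counts 6 h from birth there, and the methods count 6 h from the discovery of the litter. In the PND14 window the pups themselves were injected 2 times a day with morphine at 10 mg/kg or with saline, and in 3-Tri both exposures followed each other. Pups of PND14 and 3-Tri were taken at day 14, 6 h after the last injection, although the design text of the series names the PND14 cohort by day 15. PND1 held 7 male saline, 6 male morphine, 7 female saline and 4 female morphine libraries, and each of the 8 groups of PND14 and 3-Tri held 6. The labels name brain and the design text names cortex, and markers of cortical excitatory neurons summed to between 432.5 and 694.5 CPM, counts scaled to the size of the library in the PND1 libraries. Markers of hindbrain and spinal cord, which a forebrain sample should lack, ranged from 0.668 to 143 CPM there.

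Total counts were 20742862 to 27333125 per library at PND1, 4407544 to 21404819 at PND14 and 3113919 to 19938980 in 3-Tri. The shallowest library of PND14 (4407544) and of 3-Tri (3113919) stood far below the others, and the means in the deposited tables match these windows only when those libraries are left out. The sex genes Xist and Ddx3y went against the sex label in 4 of 24 PND1 libraries, 1 in each group, in 12 of 24 libraries of 3-Tri and in 0 of 24 of PND14, so sexes are named by label below. Litters are not given, and p-values measure the spread between pups, which may include technical spread. At PND1, and before birth in 3-Tri, the dam received the drug, so pups of 1 litter share it. The p-values there do not measure the spread between litters. In PND14 and 3-Tri each sample ID opens with a number whose meaning is not given and that belongs to 1 drug only, with 2 numbers per drug and window, so number and drug cannot be told apart. In bulk tissue, fewer cells of a type and less RNA per cell cannot be told apart either.

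The reference tables hold the promoter of 3 of the 6 members, and the windows of Grin1 and Grin2c are shown because Grin1 encodes the obligatory subunit and Grin2c was among the 2 members with the largest log2FC with age. Each run holds the 250 bases before the RefSeq start on GRCm38.p6, 5′ to 3′ on the minus strand, at chr2:25319188-25319437 for Grin1 and chr11:115267244-115267493 for Grin2c. Capitals mark the GC box GGGCGG, searched on both strands.
Grin1: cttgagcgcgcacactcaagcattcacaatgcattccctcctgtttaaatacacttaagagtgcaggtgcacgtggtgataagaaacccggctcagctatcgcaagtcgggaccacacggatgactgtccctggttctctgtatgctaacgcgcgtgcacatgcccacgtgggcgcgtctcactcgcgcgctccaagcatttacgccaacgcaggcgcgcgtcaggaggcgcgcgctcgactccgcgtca
Grin2c: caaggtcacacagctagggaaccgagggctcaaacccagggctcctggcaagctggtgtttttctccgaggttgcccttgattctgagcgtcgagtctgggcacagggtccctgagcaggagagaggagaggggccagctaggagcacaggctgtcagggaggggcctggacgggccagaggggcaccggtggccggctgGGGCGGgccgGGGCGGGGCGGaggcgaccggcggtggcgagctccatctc
The Grin2c window held 3 GC boxes and the Grin1 window 0, where 32.7% of 32851 RefSeq windows of this length hold at least 1. The Grin1 window held 27 CG dinucleotides and the Grin2c window 15, against a median of 6 over all windows.

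Levels between genes were compared per kilobase of the longest coding transcript, untranslated parts included, as CPM per kb with the SD over libraries. In PND1 saline libraries Grin1 was highest at 28.3 ± 1.79 (n = 14). Grin2d (17.2 ± 1.11) and Grin3a (16.7 ± 0.858) followed and did not differ beyond their spread. Grin2b stood at 13.3 ± 1.71 and overlapped Grin3a at its edge, and Grin2a (1.16 ± 0.115) and Grin2c (0.969 ± 0.249) were lowest and overlapped each other. At day 14 the order had changed. In PND14 saline libraries Grin1 stood at 90.8 ± 5.53 (n = 12), Grin2b at 27.6 ± 2.31, Grin3a at 17.9 ± 1.18, Grin2d at 14.5 ± 0.979, Grin2a at 10.1 ± 1.01 and Grin2c at 8.66 ± 0.468. Grin3a and Grin2d overlapped at their edges and Grin2a and Grin2c more widely, while the libraries of the other neighbours did not overlap. Divided by all annotated exon bases instead, PND1 Grin1 dropped to 12.5 ± 0.789, beside Grin2d at 14.0 ± 0.905 and Grin2b at 12.9 ± 1.66. Grin3a, with 12275 exon bases against 7491 in its longest coding transcript, then stood below Grin2b at PND1. In PND14 saline Grin3a then stood below Grin2d, and Grin2a was no longer above Grin2c on average. The order of the members thus depends on the length used, as does the place of Grin1 at PND1.

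Between PND1 and day 14, age and window change together and cannot be told apart, and every CPM value below is on the TMM scale shared by all 72 libraries. Grin1, the obligatory subunit gene, ran from 107.7 to 132.7 CPM (median 122.5) in PND1 saline and from 353.8 to 423.8 (median 393.6) in PND14 saline. The groups did not overlap, as was true of 48.7% of 22010 tested genes. Its log2FC was 1.68 ± 0.03 (SE, edgeR, adjPvalue 3.75e-57), or 3.21-fold.

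Grin2c and Grin2a rose more than the other members, with values within their SE of each other. Grin2a, the subunit gene of mature cortical receptors, ran from 14.3 to 19.3 CPM (median 16.9) in PND1 saline and from 121.4 to 166.9 (median 147.1) in PND14 saline, a log2FC of 3.13 ± 0.06. Grin2c, whose subunit is known from cerebellar granule cells and astrocytes, ran from 2.38 to 7.03 CPM (median 4.84) at PND1 and from 39.5 to 46.9 (median 42.1) at PND14, a log2FC of 3.17 ± 0.07. All 12 day 14 libraries lay above all 14 PND1 libraries for both genes.

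Grin2b, the leading Grin2 gene by count in every window, ran from 223.8 to 388.3 CPM (median 317.6) at PND1 and from 557.2 to 750.3 (median 653.2) at PND14, a log2FC of 1.06 ± 0.06 with no overlap. Grin2d, a gene of slow channels, was the only member that fell, with a log2FC of -0.24 ± 0.04 (adjPvalue 1.19e-06). Its PND1 libraries ran from 83.1 to 102.4 CPM and its PND14 libraries from 69.4 to 87.2, 10 of 12 of them below all PND1 libraries. Grin3a was nearly level, at 115.8 to 132.5 CPM against 119.2 to 147.8, and its log2FC of 0.10 ± 0.03 passed at an adjPvalue of 0.00516. Grin3a did not pass with DESeq2 size factors (0.06, adjPvalue 0.0758), in DESeq2 (0.07, adjPvalue 0.0697) or without the filter on low counts (0.07, adjPvalue 0.11).

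**Figure D1:**
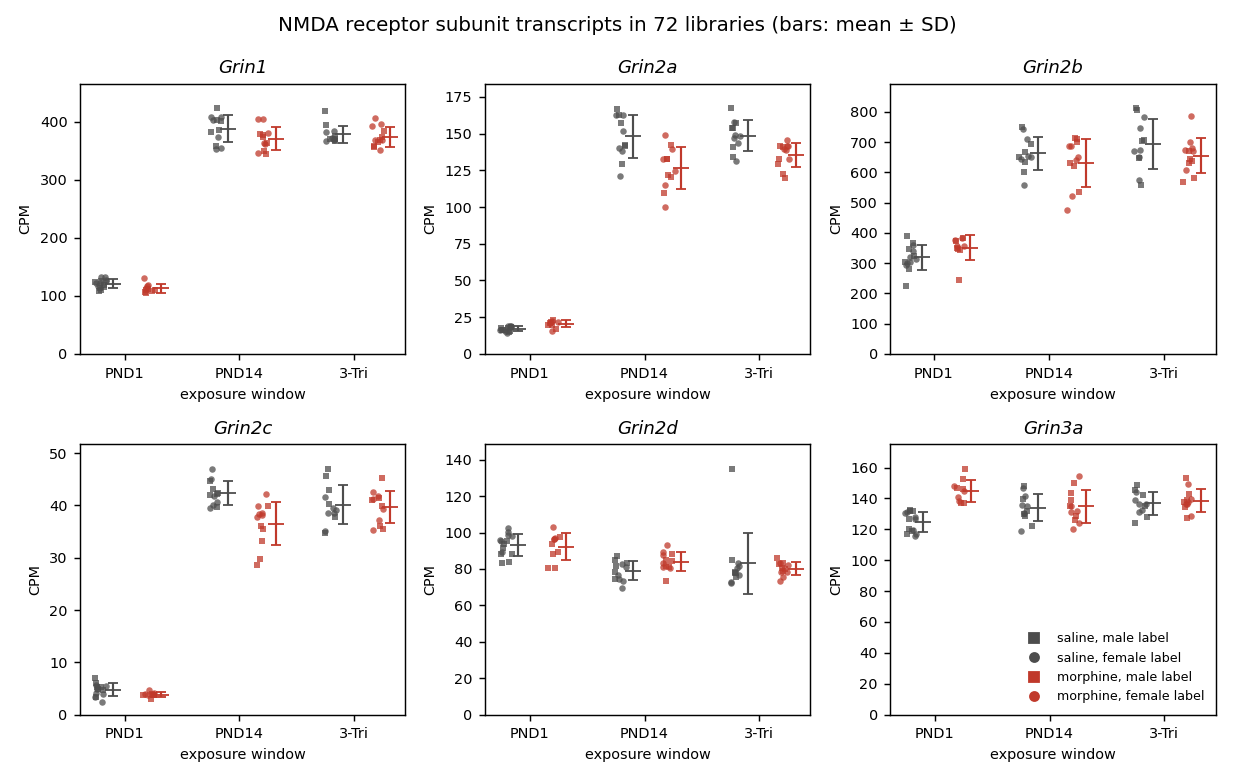
CPM of each member (vertical axis, linear from 0) in every library by exposure window, with saline left and morphine right, squares for male and circles for female labels, and mean ± SD beside the points. Grin1, Grin2a, Grin2b and Grin2c lie above their PND1 points in both day 14 windows, by the least for Grin2b (2.08-fold in PND14 saline). The ranges of Grin2d and Grin3a overlap between PND1 and day 14, with 10 of 12 PND14 saline Grin2d points below all PND1 saline points. The single high Grin2d point at 134.9 CPM is the 3-Tri library with 3113919 counts.

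In all, 6 of 6 members passed in saline PND14 against PND1, 5 of them higher, where 84.9% of tested genes passed and 41.7% were higher. In the other age comparisons the counts were 6 of 6 for morphine PND14 against PND1 (83.5% of genes), 6 of 6 for saline 3-Tri against PND1 (85.1%) and 5 of 6 for morphine 3-Tri against PND1 (83.9%). Most genes thus passed beside the members. In morphine pups the log2FC of PND14 against PND1 was 1.70 for Grin1, 2.63 for Grin2a, 0.84 for Grin2b, 3.23 for Grin2c, -0.15 for Grin2d and -0.10 for Grin3a. The median log2FC of the members was 1.37 in saline and 1.27 in morphine pups, against -0.02 and 0.00 over all genes.

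No member passed between 3-Tri and PND14 saline (edgeR, 0.0% of genes), where 723 genes had an unadjusted p under 0.05, 0 members among them, and DESeq2 called 4 genes and 0 members. The largest difference of a member was -0.09 ± 0.06 on the log2 scale, for Grin2c. In morphine pups 0 of 6 members passed between these windows, against 0.8% of genes (edgeR; 0 members and 3091 genes at an unadjusted p under 0.05, 0 members and 394 genes in DESeq2), with Grin2c at 0.12 ± 0.06 and Grin2a at 0.10 ± 0.05.

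The ratio of Grin2a to Grin2b was taken within each library and needs no scaling. Grin2a made up 5.12% ± 0.764 (SD, n = 14) of the Grin2a and Grin2b counts in PND1 saline and 18.3% ± 0.989 (n = 12) in PND14 saline. Per base of the longest coding transcript, untranslated parts included, these shares were 8.14% and 26.8%. The log2 ratio ran from -4.55 to -3.86 at PND1 and from -2.29 to -1.99 at PND14. Its mean difference of 2.06 had a p of 2e-05 in a two-sided permutation test, the smallest p that 100000 resamples can give (adjusted p = 0.00012 over 12 ratio tests). The 3-Tri saline ratio was 2.01 above PND1 with the same p in the permutation test, and differed from PND14 by -0.05 (permutation test, adjusted p = 0.258).

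Among the 4 Grin2 genes, Grin2b kept the largest share of counts, at 73.3% ± 3.06 in PND1 saline and 71.1% ± 1.13 in PND14 saline. Grin2d went from 21.6% ± 2.47 to 8.495% ± 0.657, Grin2a from 3.94% ± 0.474 to 15.9% ± 0.864 and Grin2c from 1.12% ± 0.376 to 4.56% ± 0.336. Per base of the longest coding transcript Grin2d held the largest share at PND1, at 52.8% ± 3.28 beside 40.7% ± 3.74 for Grin2b. At PND14 Grin2b led with 45.2% ± 1.51, followed by Grin2d with 23.9% ± 1.46, Grin2a with 16.6% ± 0.93 and Grin2c with 14.2% ± 0.866. That length includes untranslated parts, with 24060 bases for Grin2b and 5431 for Grin2d. Shares per base of coding sequence alone were not taken, so the lead of Grin2d at PND1 depends on the length used. These shares add to 100% within a library, so a rise of one lowers the others.

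**Figure D2:**
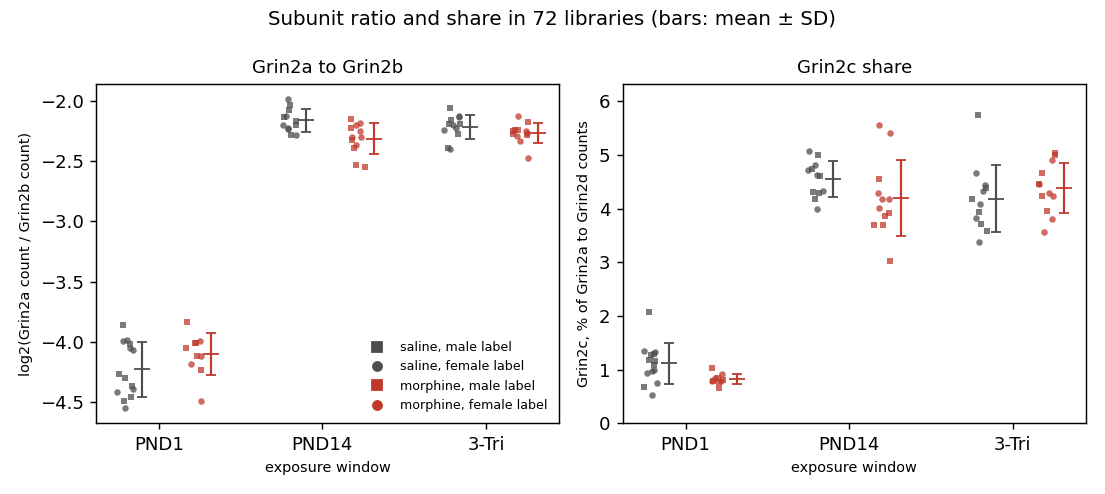
Left, log2 of the Grin2a to Grin2b count ratio per library, and right, Grin2c as percent of the Grin2a to Grin2d counts (axis from 0), by window with saline left and morphine right, squares for male and circles for female labels, and mean ± SD. All day 14 ratios lie above all PND1 ratios, and the PND14 morphine mean of -2.32 lies below the saline mean of -2.17 with overlapping points.

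In the PND1 window, which asks what exposure before birth does in the newborn brain, Grin3a was higher in morphine pups in every library. Male saline libraries ran from 117.2 to 132.5 CPM (median 126.6) and male morphine libraries from 136.8 to 159.1 (median 146.4). Female saline libraries ran from 115.8 to 131.3 (median 126.4), and the 4 female morphine libraries stood between 138.1 and 148.3. Thus all 10 morphine libraries lay above all 14 saline libraries, and the 2 drug groups did not overlap, in either direction, for 11 of 22010 genes (0.05%). The log2FC was 0.22 ± 0.04 in males (adjPvalue 0.00168) and 0.21 ± 0.03 with the sexes averaged (adjPvalue 0.000184). In females a log2FC of 0.21 ± 0.05 had an unadjusted p of 0.000221 and an adjPvalue of 0.15. The male minus female difference of 0.01 ± 0.07 did not pass (adjPvalue 0.986).

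Grin2a, at low level in the newborn, was also higher. Male saline libraries ran from 14.8 to 18.1 CPM (median 16.4) and male morphine libraries from 17.1 to 23.2 (median 20.7), 5 of 6 above all saline. Female saline libraries ran from 14.3 to 19.3 (median 18.4), and the 4 female morphine libraries from 15.9 to 22.5 (median 21.4), 3 of 4 above all saline. The log2FC was 0.31 ± 0.08 in males (adjPvalue 0.0169), 0.23 ± 0.10 in females (adjPvalue 0.352) and 0.27 ± 0.06 averaged (adjPvalue 0.00554). The male call was lost without male morphine replicate 9 (adjPvalue 0.0501) or 10 (adjPvalue 0.0526) and with the correction for GC content and length (0.0867), while the averaged call held in each of 33 alternatives, with an adjPvalue of at most 0.0462.

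Grin2c fell in PND1 males. The 7 saline libraries ran from 3.40 to 7.03 CPM (median 5.19) and the 6 morphine libraries from 3.05 to 3.89 (median 3.76), so that only 1 morphine library lay below all saline. Its log2FC was -0.50 ± 0.16 (adjPvalue 0.0337). In females the means were 4.28 ± 1.201 (SD, n = 7) for saline and 4.12 ± 0.398 (n = 4) for morphine, a log2FC of -0.06 ± 0.18, and the male minus female difference of -0.44 ± 0.24 did not pass (adjPvalue 0.871). The male call was lost with the GC and length correction (-0.31, adjPvalue 0.286). It was also lost without male morphine replicate 7, 8, 9 or 10 (adjPvalue 0.0737, 0.0503, 0.0568 and 0.0607) and without male saline replicate 12 or 13 (0.0564 and 0.0758).

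The other members did not pass at PND1. Grin1 had a log2FC of -0.10 ± 0.04 in males and -0.08 ± 0.03 averaged (adjPvalue 0.0601), with morphine at 105.5 to 131.3 CPM and saline at 107.7 to 132.7. DESeq2 called the averaged value at 0.0386, as did edgeR without female morphine replicate 3, male morphine replicate 9, female saline replicate 5 or male saline replicate 12, 13 or 14 (adjPvalue 0.0257 to 0.0488), and with the GC and length correction it was 0.01. Grin2b had a log2FC of 0.09 ± 0.10 in males and 0.21 ± 0.11 in females. It varied widely between pups, from 243.9 to 382.8 CPM in male morphine and from 223.8 to 388.3 in male saline. Its averaged value, 0.15 ± 0.07 (adjPvalue 0.156), passed without male morphine replicate 5 (0.19, adjPvalue 0.0271). The averaged Grin2c value, -0.28 ± 0.12 (adjPvalue 0.108), passed without female saline replicate 4 (-0.33, adjPvalue 0.0322). Grin2d had a log2FC of -0.01 ± 0.04 in males and 0.01 ± 0.05 in females, and the GC and length correction moved the male value to 0.23 (adjPvalue 0.00508) and the averaged value from 0.00 to 0.17 (adjPvalue 0.00379).

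**Figure D3:**
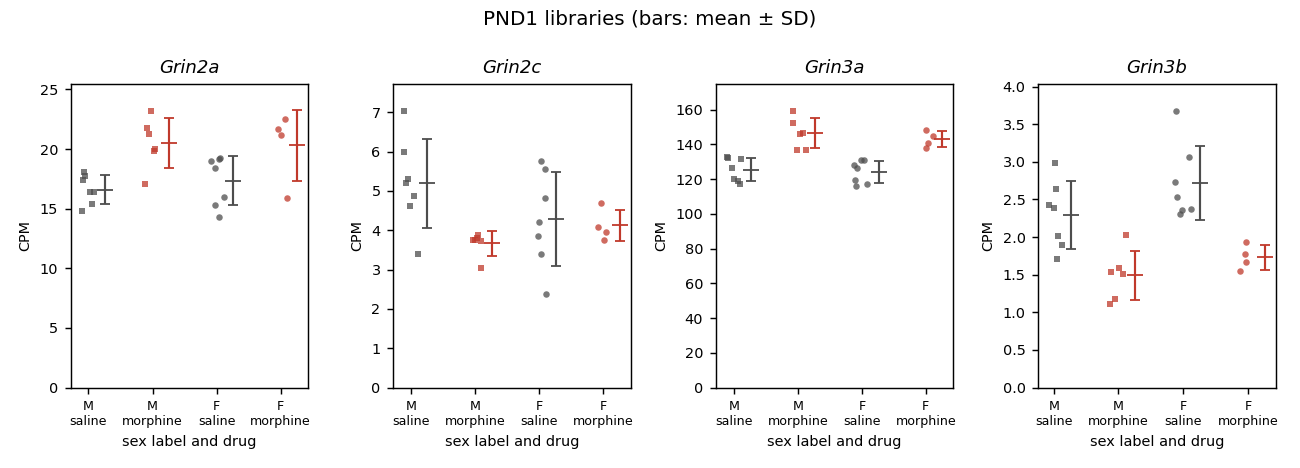
CPM (axis from 0) of Grin2a, Grin2c, Grin3a and Grin3b in each PND1 library by sex label and drug, with mean ± SD beside the points. Every morphine library lies above every saline library for Grin3a (0.05% of genes had drug groups that did not overlap), whereas the Grin2c groups overlap in both sexes.

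In PND1 males 3 of 6 members passed, 2 higher and 1 lower, where 14.4% of 21714 tested genes passed. In females it was 0 of 6 against 0.0% of genes in edgeR, with 2 members and 2547 genes at an unadjusted p under 0.05, and DESeq2 called 1 member, Grin3a (adjPvalue 0.0225), among 138 genes. With the sexes averaged it was 2 of 6 against 16.8% of genes. For the male minus female difference 0 members passed against 0.0% of genes, with 0 members and 1187 genes at an unadjusted p under 0.05 and 0 genes in DESeq2. The median log2FC of the members was 0.04 in males, against 0.01 over all genes.

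The remaining glycine-binding subunit gene Grin3b was low and lower in PND1 morphine males. The 7 male saline libraries ran from 1.70 to 2.99 CPM and the 6 male morphine libraries from 1.11 to 2.03, a log2FC of -0.63 ± 0.15 (adjPvalue 0.00676). In females 2.31 to 3.67 CPM faced 1.55 to 1.94 with no overlap, as for 2.49% of genes (log2FC -0.65 ± 0.16, adjPvalue 0.157), and averaged over the sexes the log2FC was -0.64 ± 0.11 (adjPvalue 0.00049). Tmem259, on the opposite strand, shares 32.1% of the Grin3b exon bases, and the strand setting of the counting is not given, so their reads cannot be told apart. Grin1os, an antisense gene that covers 13.5% of the Grin1 exon bases, carries the same limit. It had a log2FC of -0.14 ± 0.05 in PND1 males (adjPvalue 0.0405), with 59.9 to 72.1 CPM in saline and 55.1 to 67.3 in morphine. All Grin2d values carry this strand limit too, as Gm45441 on the opposite strand shares 9.66% of the Grin2d exon bases.

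Marker lists stood as follows at PND1, where 14.4% of all tested genes passed in males and 0.0% in females. The 9 hindbrain and spinal cord markers summed to 2.75 to 63.1 CPM in male saline (median 31.99) and 26.4 to 143 in male morphine (median 87.4), 1 of 9 of them called higher, but to 0.668 to 79.3 (median 12.02) and 3.56 to 52.7 (median 14.9) in females, where 0 of 9 were called. The 7 astrocyte markers summed to 753 to 877 CPM in male saline and 875 to 1083 in male morphine, 1 of 7 called higher. The 6 cerebellar granule neuron markers summed to 155 to 333 and 188 to 279 CPM, with 1 of 5 tested called lower. Among neuron markers 3 of 5 passed in males, 2 higher and 1 lower, with 1 of 5 interneuron markers lower, 1 of 5 oligodendrocyte markers higher and 0 of the cortical excitatory, thalamus and microglia markers. Genes with 10 kb or more of exon sequence stood above shorter genes by a median log2 of 0.0371 in male saline and 0.143 in male morphine libraries, and by 0.0133 and 0.0851 in females. Grin2a, Grin2b and Grin3a have 17933, 24842 and 12275 exon bases and are among these genes, and the part of these shifts in the members was not tested beyond the correction for GC content and length, under which Grin3a passed in males (0.20, adjPvalue 0.00156) and averaged (0.18, adjPvalue 0.000213), while Grin2a did not pass in males (0.21, adjPvalue 0.0867) and passed averaged (0.18, adjPvalue 0.0407).

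In the PND14 window, which holds exposure after birth, Grin2c was lower in morphine males. Male saline libraries ran from 39.8 to 44.6 CPM (median 42.3) and male morphine libraries from 28.7 to 39.9 (median 34.3), 5 of 6 below all saline. Female saline libraries ran from 39.5 to 46.9 (median 41.3) and female morphine libraries from 37.8 to 42.2 (median 38.5). The log2FC was -0.31 ± 0.06 in males (adjPvalue 0.0246), -0.12 ± 0.06 in females (adjPvalue 0.525) and -0.21 ± 0.04 averaged (adjPvalue 0.0142). The male minus female difference of -0.20 ± 0.09 did not pass (adjPvalue 1.0).

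By sample ID number, PND14 Grin2c averaged 42.4 CPM for each of the saline numbers 4424 and 4425, and 36.3 and 36.7 for the morphine numbers 4422 and 4423, with 6 libraries each. The male call was lost without any 1 of the 4 numbers, at an adjPvalue of 0.0519 (without 4423) to 0.964 (without 4425), while the log2FC stayed between -0.36 and -0.28. Those fits called 54, 7, 0 and 0 genes in males without 4422, 4423, 4424 and 4425, against 55 in the main fit. The averaged call was lost without 4422 (adjPvalue 0.0613), 4424 (0.176) or 4425 (0.239) and held without 4423 (0.0349). Averaged, 255, 7 and 0 genes were called without 4422, 4424 and 4425, against 332 in the main fit. Leaving out a number removes 6 of 24 libraries, and DESeq2 called the male value at 0.00102.

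Grin2a was lower on average in PND14 morphine pups without passing in the main test. Saline ran from 121.4 to 166.9 CPM (n = 12, mean 148.1 ± 14.8) and morphine from 100 to 149.2 (n = 12, mean 126.7 ± 14.2), 4 of 12 below all saline. The log2FC was -0.24 ± 0.08 in males (adjPvalue 0.301), -0.20 ± 0.09 in females (adjPvalue 0.417) and -0.22 ± 0.06 averaged (adjPvalue 0.0522), and 4 alternatives, DESeq2 among them, called the averaged value (adjPvalue 0.0163 to 0.0445). The ratio of Grin2a to Grin2b was lower too. Its mean log2 was -2.17 ± 0.0949 in saline and -2.32 ± 0.128 in morphine, 7 of 12 morphine libraries below all saline, with a difference of -0.15 (permutation test, p = 0.00214, adjusted p = 0.00856). In males alone the difference was -0.21 (exact permutation test, p = 0.0195, adjusted p = 0.0584) and in females -0.09 (exact permutation test, adjusted p = 0.212). Without the ID number 4423 or 4425 the joined difference was -0.14 and -0.15, with adjusted p = 0.0928 and 0.0798 (permutation test). Genes with 10 kb or more of exon sequence, Grin2a among them, differed from shorter genes by a median log2 of 0.00164 in PND14 saline and -0.0585 in PND14 morphine. In 3-Tri these medians were -0.00502 and -0.0282. The part of this shift in the day 14 Grin2a values was not tested beyond the correction for GC content and length.

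The other members did not pass at PND14. Grin1 had a log2FC of -0.06 ± 0.03 averaged, Grin2b of -0.07 ± 0.06 and Grin3a of 0.01 ± 0.04. Grin2d had 0.16 ± 0.05 in females (unadjusted p 0.00333, adjPvalue 0.328), with 69.4 to 82.9 CPM in saline and 80.4 to 93.1 in morphine, and 0.02 ± 0.05 in males. In males 1 of 6 members passed against 0.28% of 19636 genes, and with the sexes averaged 1 of 6 against 1.69%. In females it was 0 against 0.0% (edgeR; 2 members and 2054 genes at an unadjusted p under 0.05, 22 genes and 0 members in DESeq2). For the male minus female difference it was also 0 against 0.0% (1 member and 676 genes at an unadjusted p under 0.05, 0 in DESeq2).

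Markers of 3 cell types stood as follows in PND14 males, where 0.28% of all tested genes passed. Grin2c is known from 2 of them, astrocytes and cerebellar granule neurons. The 7 astrocyte markers summed to 4516 to 5087 CPM in saline and 3962 to 4664 in morphine, with 0 of 7 called. The 6 cerebellar granule neuron markers summed to 65.3 to 130 and 67.9 to 98.1 CPM, 0 of 6 called, and the 5 oligodendrocyte markers to 4090 to 5289 and 2348 to 4607, with 2 of 5 called lower. With the sexes averaged 3 of 5 oligodendrocyte and 1 of 4 microglia markers were called lower and 1 of 5 neuron markers higher, against 1.69% of all tested genes called. No astrocyte, cerebellar or oligodendrocyte marker was at 0 in all male libraries of a group, and the part of these cells in the Grin2c value was not tested.

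**Figure D4:**
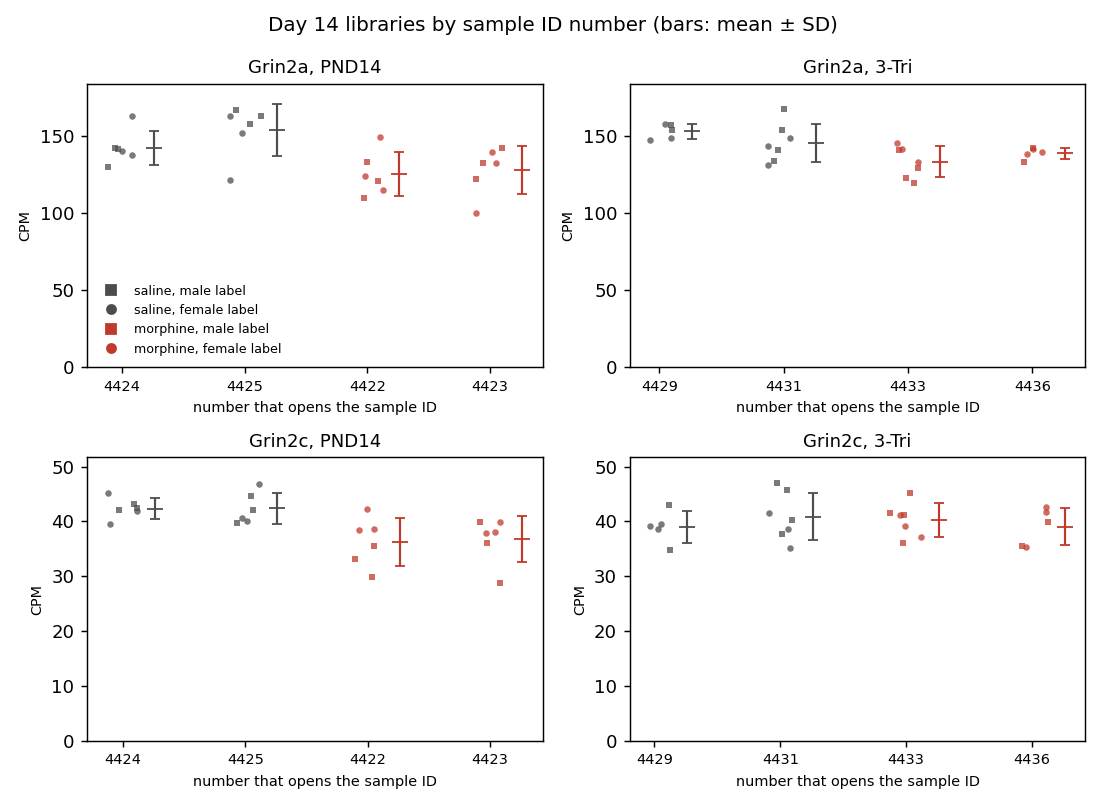
CPM (axes from 0) of Grin2a and Grin2c in the day 14 libraries by the number that opens the sample ID, saline numbers first, with mean ± SD beside the points. Both PND14 morphine numbers average 36.3 and 36.7 CPM of Grin2c against 42.4 for both saline numbers, whereas the 4 numbers of 3-Tri lie between 39.0 and 40.9.

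In 3-Tri, with morphine before and after birth, no member passed. Grin2a again had the largest averaged difference, with saline at 131.2 to 167.3 CPM (median 148.8) and morphine at 119.7 to 145.6 (median 138.9), 3 of 12 below all saline. Its log2FC was -0.20 ± 0.05 in males (unadjusted p 0.00069, adjPvalue 0.92), -0.06 ± 0.05 in females and -0.13 ± 0.04 averaged (adjPvalue 0.97). Grin2b had -0.18 ± 0.08 in males. Grin2c, at 34.8 to 47.0 CPM in saline and 35.4 to 45.3 in morphine, had -0.01 ± 0.05, and Grin1, Grin2d and Grin3a lay between -0.02 and 0.01. The Grin2a to Grin2b ratio differed by -0.05 (permutation test, adjusted p = 0.258).

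The count of members was 0 of 6 in 3-Tri males, in females, averaged and for the male minus female difference, each against 0.0% of 19730 genes in edgeR. At an unadjusted p under 0.05 there were 2, 0, 1 and 0 members among 982, 476, 963 and 457 genes, and DESeq2 called 0 genes in each. Since 12 of 24 libraries here go against their sex label, the values by sex are those of the labels only.

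**Figure D5:**
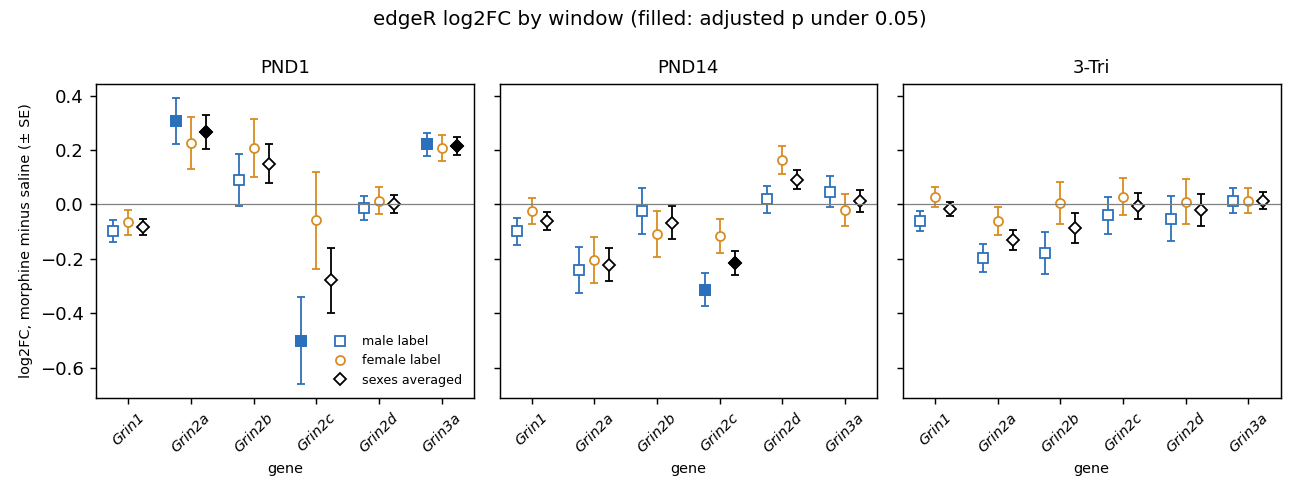
log2FC of morphine against saline (± SE, edgeR) for the 6 members in each window, as squares for male labels, circles for female labels and diamonds for the sexes averaged, filled where the adjPvalue was under 0.05. Filled points stand above 0 for Grin2a and Grin3a at PND1, below 0 for Grin2c in PND1 males and at PND14, and nowhere in 3-Tri.

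The difference between windows was tested in 1 fit of all libraries. The Grin2a response differed between PND14 and PND1 by -0.49 ± 0.08 (adjPvalue 3.88e-05) and between 3-Tri and PND1 by -0.40 ± 0.08 (adjPvalue 0.00116). The PND1 response is part of both. The Grin3a response differed by -0.20 ± 0.05 in each (adjPvalue 0.00487 and 0.00906). For Grin2c the differences were 0.06 ± 0.11 and 0.27 ± 0.11, which did not pass. Thus 2 of 6 members passed against 13.3% of genes for PND14 and 2 of 6 against 8.43% for 3-Tri. The latter fell to 0 without the libraries that go against their sex label, where the genes called fell from 1855 to 50. Grin2a was then at -0.37 (adjPvalue 0.109) and Grin3a at -0.15 (adjPvalue 0.356). Between 3-Tri and PND14 it was 0 of 6 against 0.182% (edgeR; 1 member and 2012 genes at an unadjusted p under 0.05, 0 members and 74 genes in DESeq2), with Grin2c at 0.21 ± 0.09 (adjPvalue 0.452).

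Of 23 genes that work with the receptor, Grin3b and genes of co-agonist enzymes and transporters, scaffolds, kinases and trafficking proteins, 22 could be tested within windows. In PND1 males 9 of 22 passed, 2 higher and 7 lower, against 14.4% of all genes, with Src, a kinase acting on GluN2 subunits, at -0.20 ± 0.04 and Camk2b, a kinase subunit, at -0.17 ± 0.05. Rasgrf2, an exchange factor bound by GluN2 subunits, was at 0.30 ± 0.07. With the sexes averaged 12 of 22 passed, 3 higher and 9 lower, against 16.8% of all genes, among them Slc6a9, the glycine transporter GlyT1, at -0.14 ± 0.03. In females 0 of 22 passed in edgeR, against 0.0% of all genes, with 8 of the 22 at an unadjusted p under 0.05.

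At PND14 1 of 22 passed with the sexes averaged, against 1.69% of all genes, the scaffold gene Dlg1 at -0.14 ± 0.03 (adjPvalue 0.0295). In males and in females 0 of 22 passed, against 0.28% and 0.0% of all genes, with 4 and 3 at an unadjusted p under 0.05. In 3-Tri 0 of 22 passed in males, in females and averaged, each against 0.0% of all genes, with 3, 0 and 1 at an unadjusted p under 0.05. With age 20 of 23 passed in saline PND14 against PND1, 16 higher and 4 lower, near the share of 84.9% over all genes. Camk2a, the major kinase of the postsynaptic density, led at 3.79 ± 0.05, before Pacsin1, a trafficking protein gene, at 2.398 ± 0.05, Rasgrf1 at 2.32 ± 0.04 and Camk2b at 1.05 ± 0.03. For the response in PND14 minus that in PND1 9 of 23 passed, 3 higher and 6 lower, against 13.3% of all genes, with Dlg1 at -0.20 ± 0.05 and the scaffold gene Dlg2 at -0.23 ± 0.06. In 3-Tri minus PND1 4 of 23 passed, against 8.43% of all genes.

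Within groups, members varied together to different degrees, described here by Pearson's r of log2 CPM deviations from the 12 group means over 72 libraries. The points share library, depth and RNA quality. The r was 0.575 for Grin2a with Grin2b and 0.368 for Grin1 with Grin2b, whereas Grin2c stood at -0.231 with Grin2b and Grin2d at 0.0198 with Grin3a. With the long-gene shift of a library, r was 0.735 for Grin2b, 0.643 for Grin2a and 0.598 for Grin3a, and 0.238 for Grin1, 0.0869 for Grin2d and -0.0566 for Grin2c. The coefficient of variation within PND1 saline was highest for Grin2c, the member with the fewest counts, at 25.7%, and lowest for Grin3a at 5.15%.

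Across all 72 libraries the most alike protein-coding genes, among 14762 with a mean of 1 CPM or more, were Slc6a17, Slc8a2 and Npcd for Grin1 (r = 0.997 each), Pex5l, Slc24a2 and Etl4 for Grin2a (0.996 or above), Hivep3, Hivep2 and Kcnq3 for Grin2b (0.976 or above) and Glul, Abi3 and Scn4b for Grin2c (0.99 or above). Glul encodes glutamine synthetase, an astrocyte enzyme. For Grin2d they were Rgma, Evl and Lmtk3 (0.827 to 0.787), and for Grin3a Erc1, Tenm1 and Huwe1 (0.764 to 0.685). These r values follow the step between PND1 and day 14, which most genes share. Within groups the closest genes, at r from 0.683 to 0.885, were Clstn1 for Grin1, Gabrb1 for Grin2a, Hivep3 for Grin2b, Medag for Grin2c, Panx2 for Grin2d and Erc1 for Grin3a.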

How the data were processed

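Bulk RNA-seq of 72 right hemispheres was analysed from the table of raw counts per gene that the authors deposited. Per the labels and the study's methods, reads were trimmed with Trim Galore 0.6.6, aligned to mm10 with HISAT2 2.2.1, cleared of duplicates and counted with featureCounts 2.0.1 (the strand setting is not given in the sources used here). The tables of each window that the authors deposited hold mean normalised signal per gene from DESeq2 1.36.0, used here only for gene symbols and to check which libraries entered, and the authors' own fold changes and p-values, which were not used.

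Counts were fitted with edgeR 4.0.16 (R 4.3.3) by quasi-likelihood with TMM scaling and filterByExpr (minimum count 10, minimum total 15), with 4 groups per window, or with 12 groups over all 72 libraries for age and window contrasts. P-values were adjusted over all tested genes by the Benjamini-Hochberg method, and a gene passed, or was called, at an adjPvalue under 0.05. Values after ± are the SE for log2FC and the SD for levels. CPM levels carry the TMM scaling of all 72 libraries. The log2 ratio of Grin2a to Grin2b counts was compared by two-sided permutation tests, exact where a group held under 10 libraries, adjusted over 12 tests. Annotation of GENCODE M21 on mm10 gave positions, lengths and GC content, and 55141 of 55401 IDs matched. Alternatives were DESeq2 1.42.0 and its size factors, no filter, GC and length offsets by lowess (span 0.3), replicate blocks, other sample sets and limma 3.58.1 with the ID number as a random effect. The counts of every replicate pair differed by more than sampling noise (chi-square per gene at least 1.642 over 183 pairs). The edgeR quasi-likelihood test with TMM scaling was also run on simulated counts with known changes. The DESeq2, limma, replicate block and GC and length fits were not run on simulated counts.

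The members, the partner list and the marker lists (neurons, cortical excitatory neurons, interneurons, cerebellar granule neurons, hindbrain and spinal cord, thalamus, astrocytes, oligodendrocytes and microglia) were chosen with earlier results of these data known. Named beside the members were Grin3b, genes that overlap a member, partners with the lowest p in a contrast and the 3 genes most alike to each member. Replicate numbers of the titles did not pair the samples: same-numbered libraries had deviations correlated at -0.22 to 0.21.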

Additional observations from a re-analysis of the deposited data

Results flagged for a closer look

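A library stood apart in 5 of 96 groups, where its gap to the others passed Dixon's 95% limit, about the number that chance gives. In PND1 male morphine, replicate 5 had 243.9 CPM of Grin2b beside 342.9 to 382.8 in the others, and replicate 7 had 3.051 CPM of Grin2c beside 3.721 to 3.888. In PND1 female morphine, replicate 3 had 102.8 CPM of Grin2d beside 96.28 to 96.88. In 3-Tri male saline, replicate 1, the library with 3113919 counts, had 134.9 CPM of Grin2d beside 75.38 to 84.86. There too, replicate 3 had a Grin2c share of 5.756% of the Grin2 counts beside 3.582% to 4.379%.

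The morphine response differed between windows, by an interaction term in edgeR, for 3 genes. From PND1 to PND14 the response of Grin3b differed by 0.82, that of Grin2a by -0.49 and that of Grin3a by -0.20 on the log2 scale. From PND1 to 3-Tri the differences were 0.88 for Grin3b, -0.40 for Grin2a and -0.20 for Grin3a. Both sets share the PND1 libraries. Grin3b had at most 116 counts in a library and shares exon bases with Tmem259.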

How the results depend on the processing

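The results counted here were the members called in 21 comparisons and 12 ratio tests, without the values of single members. Several of these comparisons, such as those in 3-Tri, called 0.0% of genes in the main analysis. Of 33 results with 415 values under alternatives, 385 kept direction and side of the threshold, or the count, and 24 results did so throughout. The cause of the others was not tested. With the titles' replicate block 1 member was called among 1828 genes in PND1 males (3124 genes in the main analysis). At PND14 it was 0 among 31 genes in males (55 in the main analysis) and 0 among 98 averaged (332). With block and GC and length correction, 0 members were called among 101 genes in PND1 males and among 51 in PND14 males. In PND1 males the block gave -0.215 for Grin2c (adjPvalue 0.427), 0.31 for Grin2a (0.0658) and 0.23 for Grin3a (0.0494), and with the correction 0.19 for Grin2a (0.317) and 0.20 for Grin3a (0.107). In PND14 males the block gave -0.32 for Grin2c (0.0779). The block by description number, chosen after seeing the data, called Grin3a and Grin2a in PND1 males (adjPvalue 0.00304 and 0.0132). DESeq2 called 1 member among 138 genes in PND1 females. At PND14 averaged, 2 members were called without the filter (257 genes), in DESeq2 (657), with sexes joined (386) and with the random effect in limma (644). Without libraries against their sex label, 0 members passed for 3-Tri minus PND1, among 50 genes called, and the PND1 female ratio was -0.0174. The PND14 male ratio was -0.2257 with GC and length correction. Leave-one-out ranges were 0.1667 to 0.2723 for the PND1 male ratio (adjusted p = 0.039, permutation test, without male saline replicate 13). The female ratio ran from -0.0547 to 0.1106, and the PND14 joined ratio over ID numbers from -0.1622 to -0.1410. In PND1 males 1 to 3 members were called, 1 among 1861 or 1998 genes without male morphine replicate 9 or 10. Over ID numbers it was 0 to 0 members in PND14 males, among 0 to 54 genes, and 0 to 1 averaged. Averaged, the 0 stood among 255, 7 and 0 genes without 4422, 4424 and 4425.

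Reversed values of single members were Grin2c at 0.0388 (PND1 males) and 0.1784 (averaged) with block and correction, and Grin1 averaged at 0.0137 with the correction and 0.0109 with block and correction. Grin2d in PND1 males was 0.2309 with the correction, 0.2588 with block and correction and -0.0411 to 0.0140 on leave-one-out. Averaged, Grin2d was -0.0007 with DESeq2 size factors and in DESeq2, -0.0076 without the filter, -0.0298 without libraries against their sex label, -0.0193 with the replicate block, -0.0190 with sexes joined and -0.0156 to 0.0139 on leave-one-out. Its 3-Tri minus PND1 difference was 0.0309 without the 2 shallow libraries and -0.21 with the correction, where it passed (adjPvalue 0.0253), against -0.02 in the main analysis. Depth limits Grin2c at PND1, where a library held 61 to 182 counts.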
